A study of Homo sapiens with 6 samples.

Results

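Alpha and beta tubulin, the subunits of the heterodimer from which microtubules are built, were followed at the mRNA level through 10 genes. The genes were taken by symbol, namely TUBA1A, TUBA1B, TUBA1C and TUBA4A for alpha tubulin and TUBB, TUBB2A, TUBB2B, TUBB3, TUBB4B and TUBB6 for beta tubulin. They made up 10 of the 58656 rows of the gene table, and all 10 passed the filter on low counts. The study sequenced polyadenylated RNA from MDA-MB-231, an established human triple-negative breast cancer cell line grown in DMEM with fetal bovine serum. There were 3 libraries of cells given mitocurcumin at 5 µM for 9 hours and 3 libraries of cells given the DMSO vehicle for 9 hours, referred to as control. Mitocurcumin is a derivative of the plant polyphenol curcumin that carries triphenylphosphonium, a charged group that draws molecules into mitochondria. The labels name biological replicates but not separate cultures or days. Each p-value is therefore set against the variation among these 6 libraries alone, and part of that variation may be technical.

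Microtubules give a cell its internal tracks and its mitotic spindle, and they grow and shrink by gaining and losing tubulin dimers. Cells adjust the amount of tubulin mRNA to the amount of free dimer: when free dimer is abundant, the factor TTC5 binds the first residues of a tubulin chain as it leaves the ribosome and, through SCAPER, brings the CCR4-NOT deadenylase to that mRNA. The alpha and beta isotypes differ mainly in their carboxy-terminal tails and in the tissues that use them, with TUBA1B, TUBA1C, TUBB and TUBB4B made in many dividing cells and TUBB3, TUBB2A and TUBB2B best known from neurons.

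The first codons, which encode the residues read in that feedback, are shown because members with the same line below share them base for base. Each line gives the first 12 coding bases from GENCODE release 29 on GRCh38, with the start codon in lower case and the next 3 codons in capitals.
TUBA1A, TUBA1B and TUBA1C: atgCGTGAGTGC
TUBA4A: atgCGTGAATGC
TUBB and TUBB4B: atgAGGGAAATC
TUBB3 and TUBB6: atgAGGGAGATC
TUBB2A: atgCGCGAGATC
TUBB2B: atgCGTGAGATC
For comparison, the gamma, delta and epsilon tubulins, which nucleate microtubules or belong to centrioles, start with other codons.
TUBG1: atgCCGAGGGAA
TUBD1: atgTCAATTGTA
TUBE1: atgACCCAGTCG

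Of the 10 members, 6 had lower mRNA after mitocurcumin, none had higher mRNA, and 4 did not pass the test. The test was edgeR's quasi-likelihood test, with p-values adjusted by the Benjamini-Hochberg method over 16481 genes and called below 0.05. By the same rule 17.8% of all tested genes were lower and 14.7% were higher, 32.5% in all. The median log2 fold change of the members was -0.32, beside a median of -0.01 over all tested genes. In 8 of the 10 members every mitocurcumin library lay below every control library, an arrangement that held for 23.7% of the tested genes. Groups without overlap in either direction made up 44.9% of the tested genes. The 6 lower members were TUBB4B, TUBB3, TUBA1C, TUBA1A, TUBA1B and TUBB. Levels are given as CPM, estimated counts scaled to library totals of 1 common size, each as mean ± SD with n = 3, unless a value per kilobase is named. In bulk RNA, fewer cells of a type and less RNA per cell cannot be told apart.

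**Figure D1:**
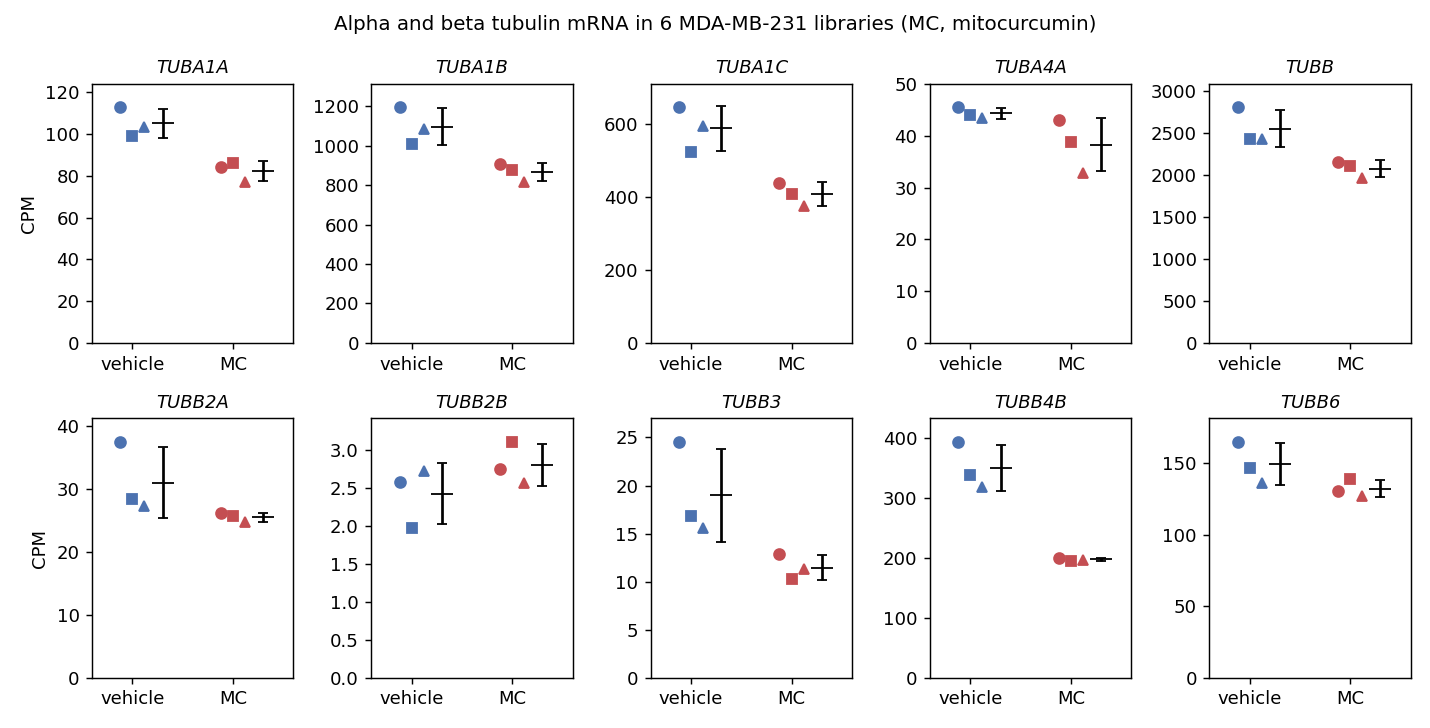
CPM (vertical axes, linear and starting at 0) of each of the 10 tubulin genes in the 3 vehicle libraries (blue) and the 3 mitocurcumin libraries (red, MC), with circle, square and triangle for replicates 1, 2 and 3 and black bars for mean ± SD. The mitocurcumin libraries lie below every vehicle library for all genes except TUBB2B and TUBB6.

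Among the alpha members, TUBA1B carried most of the signal. TUBA1B, the widely made alpha isotype on chromosome 12 (49127782 to 49131395, minus strand, GRCh38), had 1195, 1008 and 1084 CPM in control libraries 1, 2 and 3 and 906, 879 and 816 CPM in mitocurcumin libraries 1, 2 and 3. The groups did not overlap, and the lowest control library stood above the highest mitocurcumin library. Its mean fell from 1096 ± 93.8 to 867 ± 46.4 CPM, a log2 fold change of -0.34 ± 0.06 (SE; edgeR adjusted p = 0.00066).

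TUBA1C, a second widely made alpha isotype, lies on the plus strand of the same chromosome (49227926 to 49274600). It had 647, 524 and 595 CPM in the control libraries and 439.8, 410.1 and 375 CPM in the mitocurcumin libraries, again without overlap. Its level fell by 30.6%, from 589 ± 62.0 to 408 ± 32.4 CPM, and its log2 fold change of -0.53 ± 0.07 (edgeR adjusted p = 5.3e-05) was the most negative of the alpha members. TUBA1A, the alpha isotype of developing neurons, lies between TUBA1B and TUBA1C (49184795 to 49189080, minus strand). TUBA1A had 113, 99.2 and 103 CPM in the control libraries and 84.1, 86.2 and 77.0 CPM in the mitocurcumin libraries. All mitocurcumin values were below all control values, with a log2 fold change of -0.35 ± 0.07 (edgeR adjusted p = 0.00056).

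TUBA4A, on chromosome 2 (219249710 to 219254740, minus strand), encodes an alpha tubulin that is known to lack the encoded carboxy-terminal tyrosine of the other alpha members. It had 45.5, 44.1 and 43.3 CPM in the control libraries and 43.1, 38.9 and 32.8 CPM in the mitocurcumin libraries. The groups did not overlap, but mitocurcumin library 1 lay just under the lowest control library. The log2 fold change of -0.21 ± 0.09 did not pass the test (edgeR adjusted p = 0.0898). Leaving out mitocurcumin library 1 brought TUBA4A past the threshold (edgeR adjusted p = 0.0404; range over 16 alternative analyses 0.0372 to 0.409), whereas without mitocurcumin library 3 its log2 fold change was -0.11 (edgeR adjusted p = 0.409). TUBA4A overlaps STK16, a kinase gene on the opposite strand whose own counts came to 31.9% of those of TUBA4A. The overlap is one of gene spans, with shared exonic bases not measured. Whether the counting used strand is not given in the sources used here.

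Among the beta members, TUBB4B had the most negative change and TUBB the most reads. TUBB4B, a beta isotype found in many tissues and used in cilia, lies on chromosome 9 (137241287 to 137243707, plus strand). It had 393, 338 and 318 CPM in the control libraries and 200.2, 195 and 197 CPM in the mitocurcumin libraries. The mitocurcumin libraries lay close together and far below the lowest control library. Its mean fell by 43.6%, from 350.0 ± 39.0 to 197 ± 2.70 CPM, a log2 fold change of -0.83 ± 0.07 (edgeR adjusted p = 1.1e-07).

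TUBB, the main beta isotype of dividing cells, lies on chromosome 6 (30720352 to 30725422, plus strand). It had 2809, 2428 and 2429 CPM in the control libraries and 2157, 2111 and 1966 CPM in the mitocurcumin libraries. Control library 1 stood above the other controls, and the groups did not overlap. Its mean fell by 18.7%, from 2555 ± 220.1 to 2078 ± 100.01 CPM, a log2 fold change of -0.30 ± 0.06 (edgeR adjusted p = 0.0014).

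TUBB3, the neuronal beta isotype whose level is often followed in tumours treated with microtubule drugs, lies on chromosome 16 (89921925 to 89936097, plus strand). It had 24.5, 16.8 and 15.6 CPM in the control libraries and 12.9, 10.2 and 11.3 CPM in the mitocurcumin libraries. Control library 1 was well above the other 2 controls, which still lay above every mitocurcumin library. The mean fell by 39.6%, from 19.0 ± 4.84 to 11.5 ± 1.32 CPM, with a log2 fold change of -0.73 ± 0.16 (edgeR adjusted p = 0.00185). Without control library 1 the log2 fold change was -0.50, and TUBB3 was still called (edgeR adjusted p = 0.00079; range over 16 alternatives 1.5e-05 to 0.0218).

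TUBB6, a beta isotype of the class found at low level in many tissues, lies on chromosome 18 (12307669 to 12329826, plus strand). It had 165, 147 and 136 CPM in the control libraries and 130.4, 139 and 127 CPM in the mitocurcumin libraries. Mitocurcumin library 2 lay above control library 3, so the groups overlapped, and the log2 fold change of -0.18 ± 0.07 did not pass the test (edgeR adjusted p = 0.0563). Leaving out control library 3 brought it past the threshold (edgeR adjusted p = 0.0218; range over 16 alternatives 0.0218 to 0.206), whereas without control library 1 its log2 fold change was -0.10 (edgeR adjusted p = 0.158). The gene overlaps AFG3L2, which encodes a mitochondrial protease subunit on the opposite strand and had counts equal to 81.1% of those of TUBB6. Only the overlap of gene spans was checked, and how many exonic bases they share was not measured.

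TUBB2A and TUBB2B are near-identical neighbours on chromosome 6 (3153666 to 3157544 and 3224277 to 3227653, both minus strand). TUBB2A had 37.4, 28.3 and 27.2 CPM in the control libraries and 26.1, 25.6 and 24.7 CPM in the mitocurcumin libraries. The groups did not overlap, yet control libraries 2 and 3 stood only a little above the mitocurcumin libraries. The log2 fold change of TUBB2A was -0.28 ± 0.11 (edgeR adjusted p = 0.0657), and it was -0.12 without control library 1. Leaving out control library 2 or 3 brought TUBB2A past the threshold (edgeR adjusted p = 0.0421 and 0.0368; range over 16 alternatives 0.0305 to 0.310).

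TUBB2B had 2.58, 1.97 and 2.73 CPM in the control libraries and 2.75, 3.11 and 2.56 CPM in the mitocurcumin libraries. The groups overlapped, and TUBB2B was the 1 member with a positive log2 fold change, 0.21 ± 0.22 (edgeR adjusted p = 0.515). Its level rested on 51 to 73.5 estimated counts per library, the fewest of any member.

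**Figure D2:**
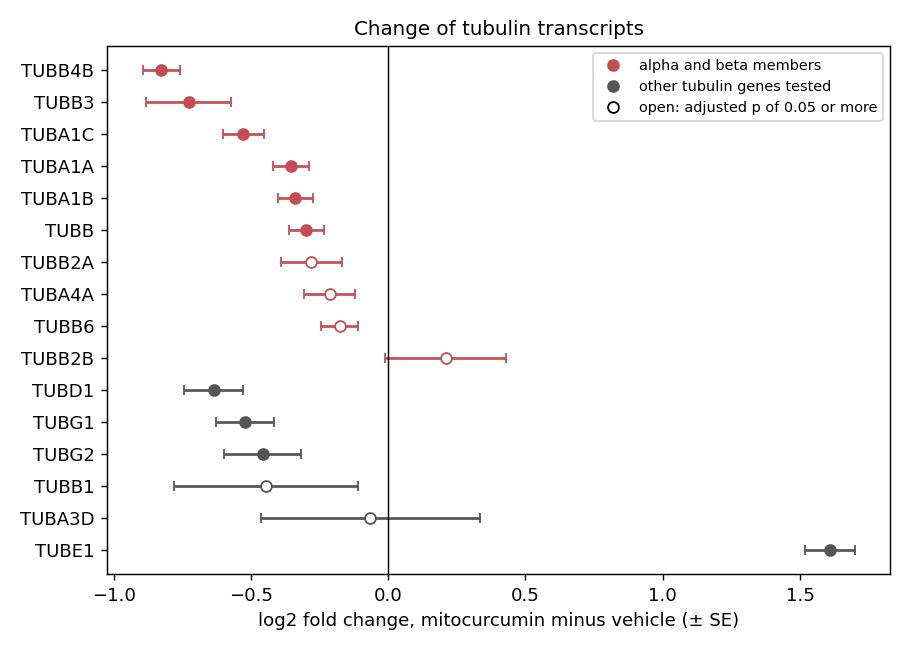
Log2 fold change (horizontal axis, mitocurcumin minus vehicle, bars ± SE) of the 10 alpha and beta members (red). Grey points are the 6 other protein-coding tubulin genes that passed the filter, and filled points have an edgeR adjusted p below 0.05. Filled red points run from -0.83 for TUBB4B to -0.30 for TUBB, and TUBE1 is the filled point to the right of 0, at 1.61.

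Per kilobase of transcript, which allows levels to be compared between genes, TUBB was the most abundant member in the control libraries at 957 ± 82.4 CPM per kilobase. TUBA1B followed at 674 ± 57.7 CPM per kilobase, and the ranges of these 2 genes did not overlap. TUBB4B at 214 ± 23.8 and TUBA1C at 196 ± 20.7 CPM per kilobase could not be separated, since their control libraries overlapped. Below them came TUBB6 at 72.3 ± 7.08 and TUBA1A at 54.9 ± 3.66 CPM per kilobase, without overlap. TUBA4A at 20.5 ± 0.51 and TUBB2A at 19.4 ± 3.52 CPM per kilobase overlapped. TUBB3 at 10.7 ± 2.74 and TUBB2B at 1.20 ± 0.20 CPM per kilobase were the lowest.

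After mitocurcumin, TUBA1C at 136 ± 10.8 CPM per kilobase stood above TUBB4B at 121 ± 1.65 CPM per kilobase, and these libraries did not overlap. The place of TUBA1C depended on the transcript used for its length: with the shorter of its 2 RefSeq-matched transcripts (1695 in place of 3001 bases) its control level was 347 CPM per kilobase, above TUBB4B. The same step to a shorter transcript put TUBB6 at 147 CPM per kilobase in the control libraries.

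TUBB4B took a smaller share of the beta transcripts after mitocurcumin. As a share of the summed CPM per kilobase of the 6 beta members, TUBB4B took 17.03%, 17.01% and 16.2% in the control libraries and 12.01%, 11.9% and 12.8% in the mitocurcumin libraries. The groups were well apart, with means of 16.8% ± 0.46 and 12.2% ± 0.48. TUBB took 75.1% ± 0.76 of the beta sum in the control libraries and 78.9% ± 0.58 in the mitocurcumin libraries, without overlap. TUBB6 went from 5.68% ± 0.18 to 6.49% ± 0.26 of the beta sum, also without overlap, and from 10.8% to 12.2% with its shorter matched transcript. Shares of a family sum are not independent of each other. TUBB and TUBB6 took larger shares although their mean CPM was lower after mitocurcumin (2555 to 2078 and 149 to 132 CPM). The shares are given as a description, with no test.

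Relative to TUBB in the same library, TUBB4B had 14.0, 13.9 and 13.1 counts per 100 counts in the control libraries and 9.28, 9.23 and 10.01 in the mitocurcumin libraries. A ratio within a library does not depend on the scaling between libraries, and here the groups did not overlap. TUBB3 had 0.87, 0.69 and 0.64 counts per 100 counts of TUBB in the control libraries and 0.60, 0.48 and 0.57 in the mitocurcumin libraries. These groups did not overlap either, although control library 3 lay close to mitocurcumin library 1.

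Among the alpha transcripts, the smaller share was that of TUBA1C. TUBA1B took 71.3% ± 0.27 of the summed alpha CPM per kilobase in the control libraries and 73.0% ± 0.48 in the mitocurcumin libraries, without overlap. TUBA1C went from 20.7% ± 0.52 to 18.6% ± 0.41 of the alpha sum, also without overlap, and from 31.1% to 28.3% with the shortest matched transcripts. The shares of TUBA1A (5.82% ± 0.14 and 5.90% ± 0.18) and TUBA4A (2.18% ± 0.16 and 2.42% ± 0.18) overlapped between the groups. Per 100 counts of TUBA1B, TUBA1C had 54.2, 51.9 and 54.9 counts in the control libraries and 48.5, 46.7 and 46.0 in the mitocurcumin libraries.

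**Figure D3:**
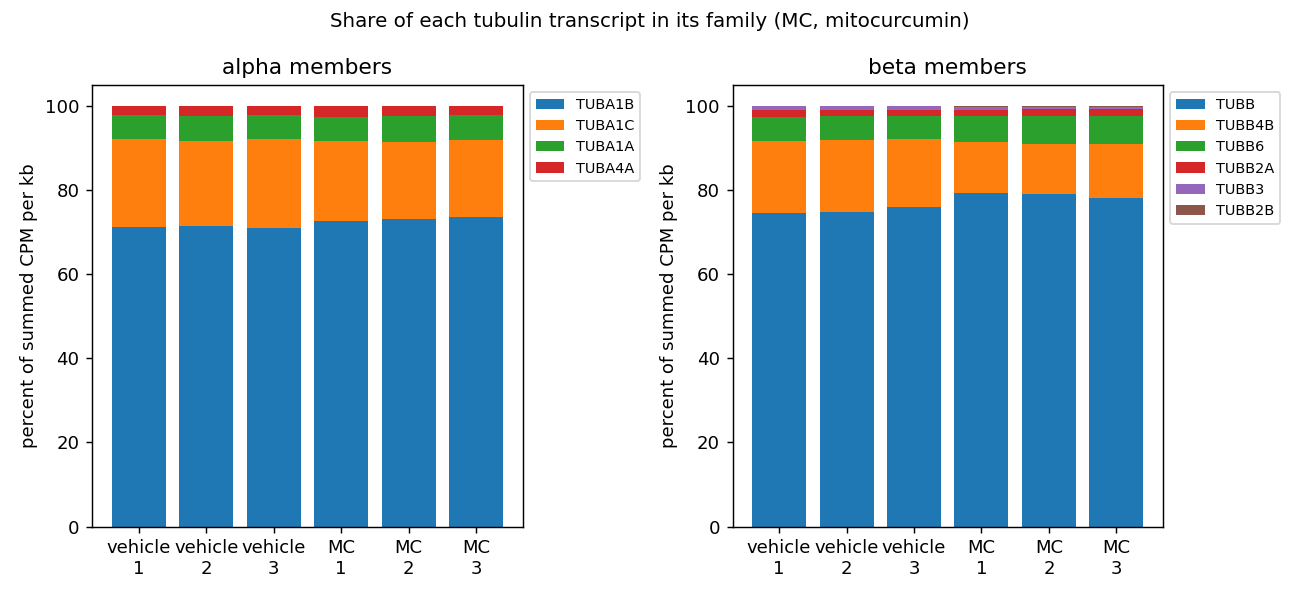
Percent of the summed CPM per kilobase of the 4 alpha members (left) and the 6 beta members (right) taken by each gene in each of the 6 libraries (MC, mitocurcumin). The TUBB4B band covers 16.2% to 17.03% of the beta bars in the vehicle libraries and 11.9% to 12.8% in the mitocurcumin libraries.

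Sums over paralogs do not depend on how reads were divided between them. The 4 alpha members summed to 1834 ± 163 CPM in the control libraries and 1396 ± 87.7 CPM in the mitocurcumin libraries, 23.9% lower. The 6 beta members summed to 3107 ± 282 and 2447 ± 105 CPM, 21.2% lower. Neither sum overlapped between the groups. The summed beta counts per 100 alpha counts were 169.5 ± 8.37 in the control libraries and 175.5 ± 3.66 in the mitocurcumin libraries, and these ranges overlapped. TUBB2A and TUBB2B together had 33.4 ± 5.72 and 28.3 ± 0.87 CPM, 15.3% lower, without overlap. Without control library 1 this difference was 5.97% (log2 ratio -0.09).

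Sequence likeness, which can limit single-gene values, differed between the members. Its effect on the counts was not measured. Coding sequences were 84.4% to 97.2% identical between alpha members, 80.9% to 98.2% between beta members and 52.2% to 53.8% between an alpha and a beta member. The closest pair was TUBB2A and TUBB2B at 98.2%. Of all stretches of 75 bases in the TUBB2A transcript, 56.8% occurred unchanged in TUBB2B, and for TUBB2B 44.4% occurred in TUBB2A, so the values of these 2 genes are uncertain one by one. For TUBA1B the share found in another member was 42.2%, for TUBA1A 27.1% and for TUBA1C 17.0%.

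TUBB4B shared 4.41% of its 75-base stretches with another member, and TUBB, TUBA4A and TUBB6 shared none with another member. At that length the 2 beta genes with the most reads, TUBB and TUBB4B, shared no stretch with each other. Counting any gene, the shares were 48.4% for TUBA1B, 5.37% for TUBB4B and 8.44% for TUBB, mostly with the pseudogene TUBBP1. Read length is not given in the sources used here, and shorter reads would share more. TUBB3 shared 6.55% with other members but 89.2% with a longer GENCODE gene that reads through it. The deposited counts followed RefSeq, and no other row of the gene table overlapped TUBB3. The deposited counts of the members were exactly whole, with no tolerance, in 2 of 60 cases, both in TUBB2B. Of 55 tubulin pseudogene rows, 53 were listed at 0 in all 6 libraries.

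The order within groups recurred across members. Control library 1 was the highest control in 9 of the 10 members, all except TUBB2B. Mitocurcumin library 3 was the lowest mitocurcumin library in 8 of the 10, all except TUBB3 and TUBB4B. Without control library 1 the 6 called members all passed the test, and so they did without mitocurcumin library 3.

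**Figure D4:**
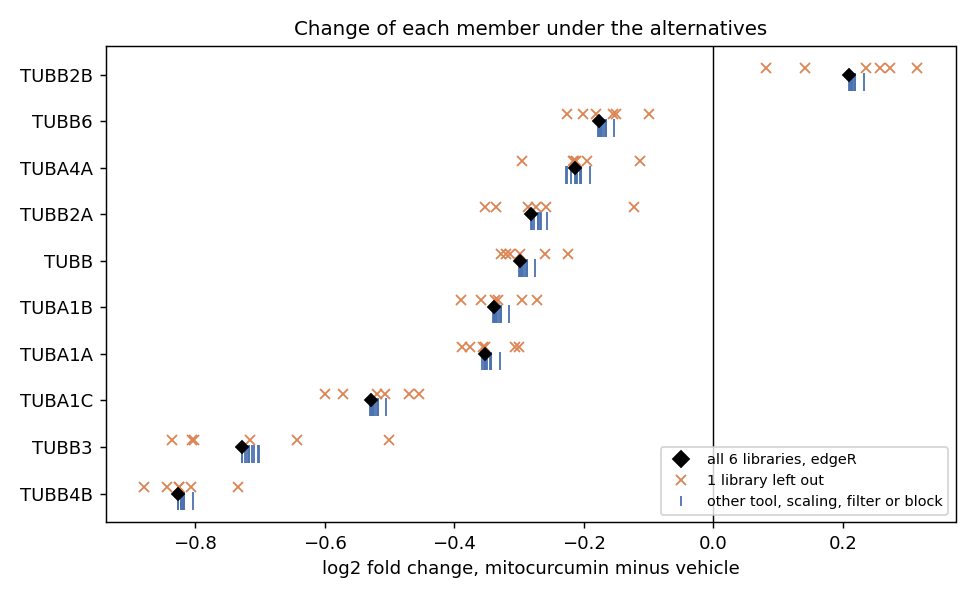
Log2 fold change (horizontal axis) of each of the 10 members with all 6 libraries in edgeR (diamonds), with 1 library left out (crosses) and with another tool, scaling, filter or block (ticks). The marks of TUBB4B run from -0.88 to -0.73, and those of TUBB2B are the marks right of 0, from 0.08 to 0.31.

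Promoter sequence was examined because members changed together. RefSeq windows (GRCh38.p14) covering the 250 bases before each annotated start gave 15 windows for the 10 members, since several have more than 1 start. Motifs were searched on both strands, without regard to overlap between motifs. CCAAT, the letters bound by the factor NF-Y, occurred in 9 of the 15 windows and in 32.0% of 35116 such windows over all genes. In TUBA1C 2 of these windows overlap by 157 bases and hold the same CCAAT, so 1 site is counted in both. These belonged to 7 members, TUBA1A, TUBA1C, TUBB, TUBB2B, TUBB3, TUBB4B and TUBB6. TTTGAA, the core of an element known from promoters of genes of late cell division, occurred in 3 windows, of TUBA1C and TUBB4B, and in 13.3% of all windows. Both motifs together occurred in 4.69% of all windows. GGGCGG, bound by SP1, occurred in 9 of the 15 windows and in 42.6% of all windows. A match is a description of letters and not a bound site.

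The windows of TUBB4B and TUBA1C are printed because they hold both motifs and belong to the beta and the alpha member with the most negative change. The window of TUBB2B, which did not pass the test, is printed beside them. Capitals mark CCAAT, or ATTGG where it lies on the other strand, and TTTGAA, each window reading 5′ to 3′ on the strand of its gene. They lie at chr9:137241037-137241286 (plus strand), chr12:49264832-49265081 (plus strand) and chr6:3227654-3227903 (minus strand).
TUBB4B: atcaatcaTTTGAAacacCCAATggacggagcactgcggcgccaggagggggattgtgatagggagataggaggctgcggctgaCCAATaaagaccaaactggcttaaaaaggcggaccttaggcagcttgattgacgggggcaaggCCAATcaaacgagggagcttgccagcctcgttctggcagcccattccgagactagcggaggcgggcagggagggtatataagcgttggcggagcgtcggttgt
TUBA1C: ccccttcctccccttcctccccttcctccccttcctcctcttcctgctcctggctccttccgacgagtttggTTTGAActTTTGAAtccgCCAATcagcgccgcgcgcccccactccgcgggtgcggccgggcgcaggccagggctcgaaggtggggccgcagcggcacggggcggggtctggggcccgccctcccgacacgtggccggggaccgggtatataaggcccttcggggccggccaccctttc
TUBB2B: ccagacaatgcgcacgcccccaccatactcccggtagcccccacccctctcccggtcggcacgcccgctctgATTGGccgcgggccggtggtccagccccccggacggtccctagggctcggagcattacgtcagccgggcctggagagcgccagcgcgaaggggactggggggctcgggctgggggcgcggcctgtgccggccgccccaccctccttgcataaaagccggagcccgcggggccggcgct
The TUBB4B window held 3 matches to CCAAT and 1 to TTTGAA, and the TUBA1C window held 1 and 2. TUBB2B held 1 match to CCAAT and none to TTTGAA. Among the other uncalled members, TUBB6 held CCAAT but no TTTGAA, and TUBA4A and TUBB2A held neither motif. The other called members, TUBB3, TUBA1A, TUBA1B and TUBB, held no TTTGAA in any window, and TUBA1B held neither motif. Another TUBA1C window, at chr12:49227676-49227925, also held 1 CCAAT and 1 TTTGAA. Whether either motif bears on the changes was not tested.

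The other tubulins, which are not subunits of the common dimer pool or are made in few tissues, gave 6 tested genes of 12 listed, with 3 lower, 1 higher and a median log2 fold change of -0.45. TUBE1, the epsilon tubulin of centrioles, had 14.2, 13.6 and 15.6 CPM in the control libraries and 44.8, 44.5 and 43.4 CPM in the mitocurcumin libraries. It rose with a log2 fold change of 1.61 ± 0.09 (edgeR adjusted p = 8.9e-10), without overlap. TUBD1, the delta tubulin of centrioles, fell from 19.0 ± 0.55 to 12.2 ± 1.00 CPM (edgeR adjusted p = 2.2e-04). TUBG1, the main gamma tubulin that nucleates microtubules, fell from 81.1 ± 13.4 to 56.5 ± 6.09 CPM (edgeR adjusted p = 0.00145). TUBG2, its close paralog, fell from 12.8 ± 2.12 to 9.34 ± 1.04 CPM (edgeR adjusted p = 0.0192). TUBB1, the beta isotype of platelets, had a log2 fold change of -0.45 ± 0.33 (edgeR adjusted p = 0.343), and TUBA3D, an alpha isotype of testis, -0.07 ± 0.40 (edgeR adjusted p = 0.923). Neither passed the test.

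Among the genes that fold tubulin, calls were higher only, and most genes did not pass the test. In this and the next lists, values in parentheses are log2 fold changes ± SE of genes that passed the test. Each count is to be set beside the shares over all tested genes, 17.8% lower and 14.7% higher. Of 22 genes of prefoldin, the chaperonin CCT and the tubulin cofactors, 6 rose, 0 were called lower, 16 did not pass and the median log2 fold change was 0.09. The named genes are PFDN2 (0.38 ± 0.11) and PFDN5 (0.27 ± 0.09), subunits of the prefoldin that hands new chains to the chaperonin, and TBCEL (0.35 ± 0.07), a relative of the tubulin cofactor TBCE. Without mitocurcumin library 3, only 2 of these genes were called higher. Without control library 1, 9 were called higher and 1 was called lower.

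In the feedback that degrades tubulin mRNA, the recognition factors did not pass the test. TTC5 had 15.04, 11.99 and 11.9 CPM in the control libraries and 11.4, 11.9 and 13.8 CPM in the mitocurcumin libraries (edgeR adjusted p = 0.749). SCAPER had 19.0, 24.0 and 21.4 CPM in the control libraries and 21.3, 18.5 and 20.2 CPM in the mitocurcumin libraries (edgeR adjusted p = 0.508). Both genes overlapped between the groups. Together with CCR4-NOT and its recruiters, 16 of 17 genes were tested, of which 3 fell and 3 rose, with a median log2 fold change of -0.08. The lower genes were 18.8% of those tested, near the 17.8% over all tested genes, and as many rose, beside 14.7% over all. BTG1 (0.84 ± 0.06) and TOB2 (0.28 ± 0.09), which recruit the deadenylase to mRNAs, rose, and CNOT3 (-0.26 ± 0.08), a subunit of the complex, fell. The 3 lower calls became 1 without control library 3 or mitocurcumin library 3 and 0 without mitocurcumin library 1 or 2, and the 3 higher calls became 1 without mitocurcumin library 1.

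Enzymes that modify tubulin gave 23 tested genes, of which 7 fell and 1 rose, with a median log2 fold change of -0.07. AGBL3 (-0.79 ± 0.23), a carboxypeptidase that trims tubulin tails, MATCAP1 (-0.57 ± 0.14), which removes the terminal tyrosine, and TTLL12 (-0.51 ± 0.09), a member of the tyrosine ligase family, all fell. The 7 lower calls became 4 without control library 2 or mitocurcumin library 2, and the 1 higher call became 2 without control library 1.

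Proteins that bind or cut microtubules gave 44 tested genes, of which 14 fell and 2 rose, with a median log2 fold change of -0.17. TACC3 (-0.62 ± 0.07), a spindle protein, MAPRE2 (-0.59 ± 0.08), which tracks growing ends, and KATNAL1 (-0.58 ± 0.07), a severing enzyme of the katanin family, fell. The gamma-tubulin ring complex and augmin, which start new microtubules, gave 20 tested genes, of which 9 fell and none rose, with a median of -0.15. TUBGCP5 (-0.88 ± 0.09), a subunit of the ring, HAUS8 (-0.66 ± 0.11), a subunit of augmin, and PCNT (-0.46 ± 0.05), a scaffold of the centrosome, fell. The 9 lower calls became 5 without mitocurcumin library 1 or 2.

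The other filament systems also held lower genes. Of 21 genes of actin and intermediate filaments, 11 fell and 1 rose, with a median log2 fold change of -0.15. NES (-0.95 ± 0.11), ACTA2 (-0.72 ± 0.25) and LMNB2 (-0.70 ± 0.09), which encode nestin, smooth muscle actin and lamin B2, fell. The 11 lower calls became 7 without mitocurcumin library 1. The 1 higher call became 2 without control library 1 and 0 without control library 2 or any 1 of the mitocurcumin libraries.

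The 5 genes outside the tubulins whose profile over the 6 libraries was most like the mean member profile were PRAG1, POMGNT2, MINK1, SEC61A2 and DNHD1, with Pearson correlations of 0.999, 0.998, 0.997, 0.996 and 0.996. These values are descriptive, because the 6 libraries share their group means and 856 of 11146 genes had a correlation above 0.9.

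Library totals ran from 23146822 to 29104681 estimated counts. Summed over VIM, CD44, EGFR, AXL and CAV1, the markers fixed for the line, the level was 6423 to 6466 CPM in the control libraries and 6527 to 6738 CPM in the mitocurcumin libraries. Of these, EGFR was called higher (565 to 688 CPM, edgeR adjusted p = 0.00089) and the other 4 did not pass the test. ESR1, PGR and ERBB2, low or absent in triple-negative cells, summed to 37.9 to 49.0 and 30.8 to 35.8 CPM. Nearly all of this sum was ERBB2, which was called lower (41.6 to 32.6 CPM, edgeR adjusted p = 0.015). ESR1 and PGR had 37.7 and 29.5 estimated counts over all libraries and did not pass the filter. Summed levels of markers of other cells were low in both groups, and each sum was lower in the mitocurcumin libraries without overlap. The 5 leukocyte markers summed to 8.99 to 10.1 CPM in the control and 6.97 to 7.59 CPM in the mitocurcumin libraries, and none of the 3 tested was called. The 5 fibroblast markers summed to 19.9 to 24.6 and 14.3 to 17.5 CPM. Of the 3 tested, COL1A2 fell (13.0 to 5.90 CPM), whereas COL1A1 (8.52 and 9.25 CPM) and LUM (1.02 and 0.99 CPM) did not pass the test. The 4 endothelial markers summed to 17.5 to 19.5 and 9.20 to 10.5 CPM, and both tested genes, PECAM1 and KDR, fell. None of these markers was at 0 over all libraries, and their part in the tubulin values was not tested.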

How the data were processed

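Polyadenylated RNA of 6 libraries was captured with a stranded kit, per the labels' protocols. The build named, per the submitters' processing notes, is GRCh38, and per the file headers genes followed RefSeq; aligner and counting tool are not given in the sources used here. As raw values the authors deposited unscaled estimated counts, of which 20.1% to 21.4% of those above 0 were exactly whole, with no tolerance. Their second table, also deposited, holds log2 values, each of these the raw count on a log2 scale minus a constant for its library, with low values at 0.

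Here the estimated counts were rounded and fitted for all genes with edgeR 4.0.16 in R 4.3.3 (TMM scaling, filterByExpr at its count of 10 per library and total of 15, group as the only term, robust quasi-likelihood test), giving 16481 tested genes and Benjamini-Hochberg adjustment over all of them. CPM uses the TMM-scaled totals. The fitted biological coefficient of variation was 8.43%. On simulated counts for these 16481 genes, 84.5% of 97 genes changed 2-fold and 63.3% of 98 genes changed 1.5-fold were recovered, with 5 false calls among 149. The simulation changed 100 genes per fold size, a far smaller share than the 32.5% of genes called in the data. Its rates may therefore not carry over to these data. Alternatives used DESeq2 1.42.0 and limma 3.58.1. Lengths and coding starts came from GENCODE release 29, taking for each gene the transcript matched to the lowest RefSeq number, and promoters from RefSeq. No table of protein sequences was used here.

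The members and gene lists were chosen with earlier results of these data known. Named are all members and every other protein-coding tubulin gene that passed the filter. The pseudogene row TUBA3FP also passed it but was not in the lists. Also named are the 3 called genes of each list with the largest change at a mean of at least 1 CPM. So are the 5 genes of most similar profile at a mean of at least 5 CPM. TTC5 and SCAPER are named for their role in the feedback, and the shorter transcript lengths were tried after the data were seen.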

Additional observations from a re-analysis of the deposited data

How the results depend on the processing

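Each of the 6 members called lower was called under all 16 alternatives, which were 2 other scalings, 2 filters, DESeq2, limma voom, limma on the deposited log2 values, a replicate block, unrounded counts, a threshold of 0.01 and leaving out each library. The number of members called lower ran from 6 to 9, with none called higher. The highest adjusted p was 0.0173 for TUBB and 0.0218 for TUBB3. The TUBB2B change kept its positive sign, from 0.08 to 0.31, and was not called.

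Of the uncalled members, TUBA4A was called under 2 alternatives, TUBB2A under 4 and TUBB6 under 3. Without the filter on low counts, TUBB2A (edgeR adjusted p = 0.0321) and TUBB6 (0.0326) passed. The other scalings moved the median of all genes to 0.00393 and -0.00446.

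The replicate numbers are shared between the groups, but the labels do not say whether same-numbered libraries were paired. Deviations from the group mean correlated at 0.149, 0.0168 and -0.00975 between same-numbered libraries. Control library 2 was closest to mitocurcumin library 3 (0.128). Correlations this small, from 3 libraries per group, cannot decide whether the libraries were paired. With the replicate block the calls over all genes went from 5363 to 5806, the members called lower from 6 to 9, through TUBA4A (edgeR adjusted p = 0.0372), TUBB2A (0.0305) and TUBB6 (0.0268), and the modification genes called higher from 1 to 2.

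For the lists, leaving out 1 library gave 0 to 1 folding genes lower and 2 to 9 higher, 0 to 3 of the feedback list lower and 1 to 3 higher, 4 to 6 modification genes lower and 1 to 2 higher, 5 to 11 ring complex and augmin genes lower, and 7 to 10 actin and intermediate filament genes lower and 0 to 2 higher. At a threshold of 0.01 these were 2 folding genes higher, 0 of the feedback list lower and 1 higher, 4 modification genes lower, 5 ring complex and augmin genes lower, and 7 filament genes lower and 0 higher. For the filament genes called higher, a mean of at least 1 CPM, DESeq2 and limma voom each gave 2. A stricter threshold or fewer samples calls fewer genes by construction; otherwise the cause was not tested.

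The TUBB4B share of the beta sum was 11.3% in control and 8.07% in mitocurcumin libraries on CPM without length, and 15.7% and 11.3% with the shortest matched transcripts, beside 16.8% and 12.2%. On CPM the TUBA1C share of the alpha sum was 32.1% and 29.2%. Leaving out 1 library put the TUBB4B share per kilobase at 16.6% to 17.02% in control and 11.95% to 12.4% in mitocurcumin libraries. Adding pseudogene rows left the log2 ratio of the alpha sums at -0.39 and of the beta sums at -0.34. This step could hardly change the sums, because 53 of the 55 pseudogene rows were at 0 in all libraries. It therefore cannot show whether pseudogenes took reads from the members. Leaving out 1 library put the log2 ratio of summed TUBB2A and TUBB2B at -0.31 to -0.09. Depth limits TUBB2B most, and read sharing limits TUBB2A, TUBB2B and TUBA1A to TUBA1C one by one. For TUBB3, the gene that reads through it is a GENCODE entry, and no other row of the gene table overlapped TUBB3. Whether that gene bore on the TUBB3 counts was not tested.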

Other observations

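TUBA4B, a tubulin row that overlaps TUBA4A on the opposite strand and did not pass the filter, had 0, 1.15 and 0 estimated counts in control libraries 1, 2 and 3 and 5.17, 3.64 and 8.18 in mitocurcumin libraries 1, 2 and 3. It was singled out after its values were seen, the counts are too few for a fold, and 3.02% of the 75-base stretches of the TUBA4A transcript also occur in TUBA4B.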
